A study of Oryza sativa and Triticum aestivum and Oryza sativa Japonica Group with 26 samples.

Results

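The last 20 Mb of the long arms of 20 bread wheat chromosomes were examined for 2 histone marks. Bread wheat (Triticum aestivum) carries 3 subgenomes, A, B and D, and its 21 chromosomes fall into 7 homoeologous groups, in which the A, B and D members descend from the same ancestral chromosome. The peak lists give each chromosome in parts, and its end was taken as the furthest peak end of part 2 over the 3 wheat lists. A peak belonged to an end when its midpoint lay within 20 Mb of that point. Chromosome 4A was left out by this rule, as its long arm is known to carry segments moved from other chromosomes. The 20 ends held 80779 of the 1226985 peaks of the 3 lists, or 6.58% of the peaks on 2.75% of the covered coordinates. By list these were 51202 of 779349 H3K27me3 peaks, 14774 of 223970 H3K4me3 peaks and 14803 of 223666 peaks of the H3K4me3 library labelled DSN.

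The study used chromatin immunoprecipitation and sequencing (ChIP-seq) to assemble the core genome of organisms with large genomes from marked chromatin, and its series also holds rice libraries, which were not used here. All 3 wheat libraries came from seedlings of the cultivar Chinese Spring. Germination took 3 days in water, after which the plants were moved to soil and collected after 9 days of long-day light, with the parts above and below ground in the same collection. The labels give no genetic change or treatment and do not say how many plants were pooled. The libraries were 1 for H3K27me3, 1 for H3K4me3 and 1 for H3K4me3 labelled DSN. DSN is a duplex-specific nuclease that lowers the share of abundant fragments in a library before sequencing, and it is taken from the title that this step was applied to that library. The other H3K4me3 list is called the plain list below. With 1 library per list there is no replicate, so no test was made and no p-value is given. Differences between ends are differences between places in 1 library. Standard deviations (SD) printed below are over ends or over homoeologous groups, not over replicates. The lists hold no read counts, so depth is unknown, and no wheat input library was used here.

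H3K27me3, trimethylation of lysine 27 of histone H3, is written by Polycomb repressive complex 2 and typically lies over genes that are kept silent in a tissue or stage. H3K4me3 typically lies at the starts of transcribed genes. Distal parts of wheat chromosomes are known to be rich in genes and to recombine often, while the long interior is mostly transposable elements. The marks were therefore described for each end and set against the interior of the same chromosome, defined as both parts without the outer 20 Mb at either end.

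Every long-arm end was more densely marked than the interior of its own chromosome, in all 3 lists. H3K27me3 peaks covered a median of 20.6% of the end (lowest 11.4%, highest 34.7%, 20 ends) against a median of 6.63% of the interior (4.83% to 8.60%). H3K4me3 peaks covered a median of 10.8% of the end (7.91% to 14.6%) against 4.60% of the interior (3.54% to 5.90%). In the DSN list the medians were 9.33% for the ends and 3.93% for the interior. The ranges of ends and interiors did not overlap in any list. The ratio of end to interior had a median of 3.15 for H3K27me3 (1.81 to 4.84), 2.33 for H3K4me3 (1.65 to 3.45) and 2.37 for H3K4me3 DSN (1.73 to 3.52). H3K27me3 had the higher ratio of the 2 marks on 15 of 20 chromosomes. The size of this gap depended on how many peaks were kept: with equal peak numbers the median ratio was 6.76 for H3K27me3 and 2.33 for H3K4me3, and with peaks of score 100 or more it was 4.69 and 2.29. With the rest of part 2 alone as reference, on the 17 chromosomes whose part 2 was 60 Mb or longer, the median ratios were 2.75, 1.69 and 1.70. They ranged from 1.40 to 4.24 for H3K27me3, from 1.04 to 2.77 for H3K4me3 and from 1.08 to 2.78 for DSN. The lowest H3K4me3 ratios were thus close to equal cover.

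**Figure D1:**
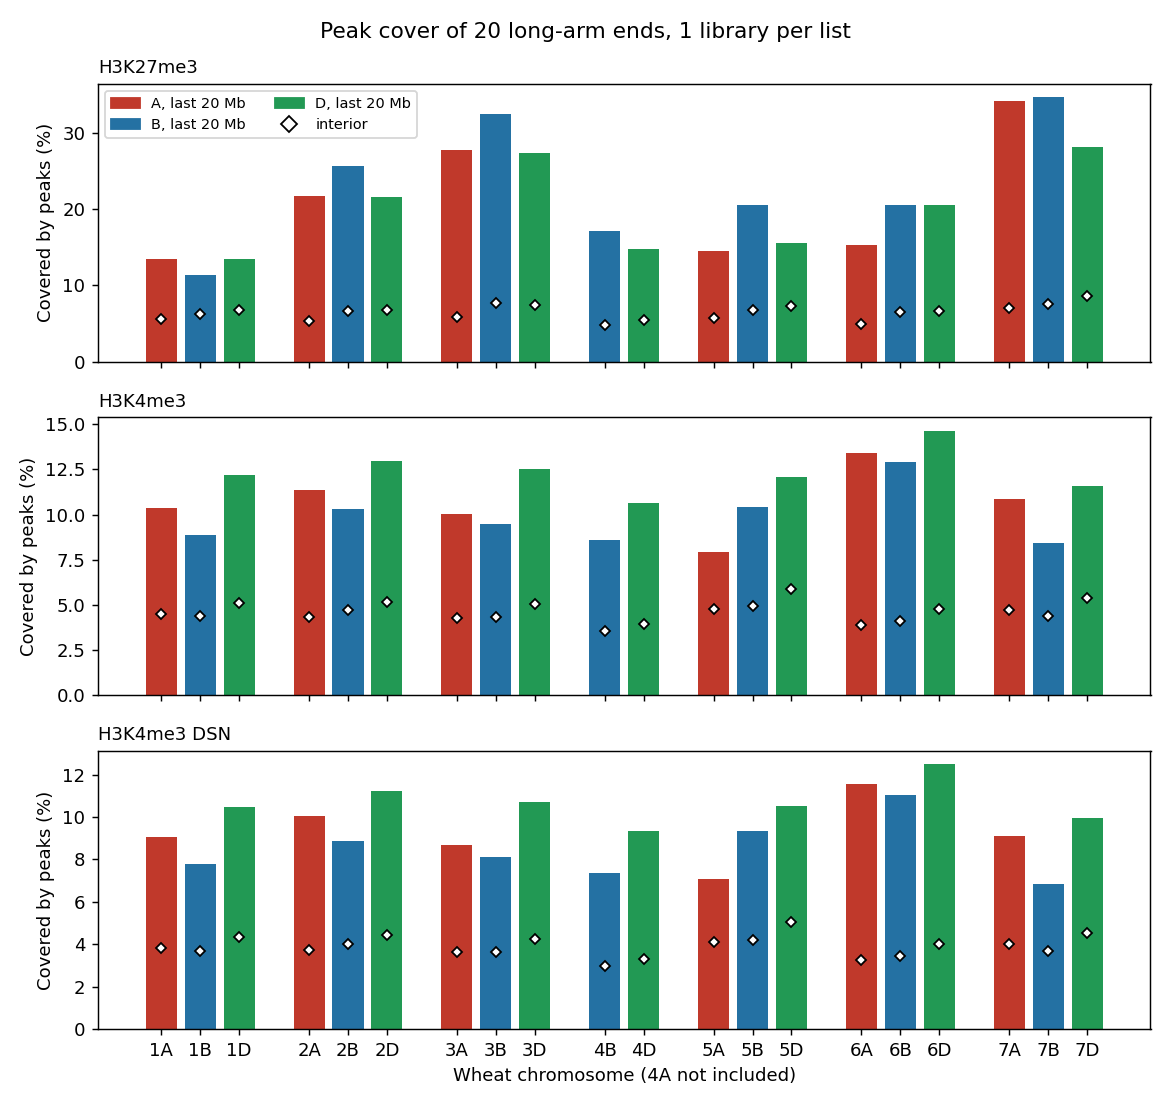
Share of the last 20 Mb covered by peaks (bars, percent) for the 20 long-arm ends, coloured by subgenome, with the interior of the same chromosome as diamonds; 1 library per panel, so no error bar. H3K27me3 bars rise and fall by homoeologous group, from 11.4% on 1B to 34.7% on 7B, while in both H3K4me3 panels the D bar is the highest of each complete group.

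H3K27me3 cover went largely by homoeologous group. In group 7 it covered 34.2% of the 7A end, 34.7% of 7B and 28.1% of 7D. In group 3 the values were 27.8% on 3A, 32.5% on 3B and 27.4% on 3D. These were the 6 ends of highest H3K27me3 cover. Group 2 came next, with 21.7% on 2A, 25.6% on 2B and 21.6% on 2D. Group 6 had 15.3% on 6A, 20.6% on 6B and 20.5% on 6D. Groups 5, 4 and 1 were at the low side of the range. In group 5 the mark covered 14.5% of 5A, 20.5% of 5B and 15.5% of 5D, and in group 4 it covered 17.2% of 4B and 14.7% of 4D. Group 1 had 13.5% on 1A, 11.4% on 1B and 13.5% on 1D, and 1B was the least covered of the 20 ends. The 3 members of group 1 lay below every end of the other groups.

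Over the 18 ends of the 6 complete groups, homoeologous group took 89.8% of the sum of squares of H3K27me3 cover between ends and subgenome 4.08%. Such shares are not corrected for the number of levels, 6 groups against 3 subgenomes, which favours group. Leaving out each group in turn kept the share of group between 85.0% and 91.2%. The same split for the interior of these chromosomes gave 41.7% to group and 51.7% to subgenome. At the short-arm ends it gave 75.8% to group and 0.432% to subgenome, so a large share of group was not particular to long-arm ends. The median difference in H3K27me3 cover was 3.89 percentage points between homoeologous ends (19 pairs) and 7.35 between ends of different groups (171 pairs). For pairs of the same subgenome it was 7.61 (57 pairs). Short-arm ends had another order of chromosomes: 1D, with 13.5% at its long-arm end, had the highest short-arm value at 38.04%, and 7B, with the highest long-arm cover, had 11.4% on the short arm. Across the 20 chromosomes the cover of long-arm and short-arm ends had a Pearson correlation of -0.0035 and a Spearman correlation of -0.12, given as a description of places in 1 library. Long-arm cover exceeded short-arm cover on 11 of 20 chromosomes, yet over all 20 the long-arm ends were 21.5% covered and the short-arm ends 25.03%.

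Within groups, the B member had the highest H3K27me3 cover in 5 of 6 complete groups, and the D member in 0. The B end exceeded the A end by a mean of 3.06 percentage points (SD 3.18 over 6 groups), and the D end lay below the B end by a mean difference of -3.04 percentage points (SD 3.09 over 7 groups). D and A ends differed by a mean of -0.076 percentage points (SD 3.61 over 6 groups), which is far inside the spread of the groups. Without group 7 this difference changed sign, to 1.12. The subgenome differences in the H3K27me3 cover of the ends were thus no larger than, or close to, the spread over groups. In the interior, D exceeded A by 1.497 percentage points (SD 0.153, higher in 6 of 6 groups). As a ratio to its own interior, H3K27me3 cover of the D end was therefore lower than that of the A end in 6 of 6 groups, with a mean difference of -0.721 (SD 0.548).

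H3K4me3 cover followed subgenome as well as group. The D end was the highest of its group in 6 of 6 complete groups in both H3K4me3 lists, and the B end the lowest in 5 of 6. In group 1 the mark covered 10.4% of 1A, 8.86% of 1B and 12.2% of 1D. In group 2 it covered 11.3% of 2A, 10.3% of 2B and 13.0% of 2D, and in group 3 10.0% of 3A, 9.45% of 3B and 12.5% of 3D. The pattern was thus alike in these groups, with D highest and B lowest. Group 4 had 8.59% on 4B and 10.7% on 4D. Group 5 was the exception at its low side, where 5A had the lowest cover of the 20 ends, at 7.91%, against 10.4% on 5B and 12.1% on 5D. The place of the lowest end was not fixed: in the DSN list it was 7B with 6.83%, against 7.09% on 5A, and in both lists it was 1B with ends of 10 Mb and 7B with ends of 30 Mb. Group 6 had the highest mean, with 13.4% on 6A, 12.9% on 6B and 14.6% on 6D, and 2D lay between 6B and 6A. Group 7, richest in H3K27me3, had 10.9% on 7A, 8.42% on 7B and 11.6% on 7D.

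The D end exceeded the A end in H3K4me3 cover by a mean of 2.004 percentage points (SD 1.20, higher in 6 of 6 groups) and the B end by 2.52 (SD 0.708, higher in 7 of 7 groups). In the DSN list these differences were 1.64 (SD 0.973) and 2.20 (SD 0.693), with D higher in 6 of 6 and 7 of 7 groups. B and A ends differed by -0.587 percentage points in the plain list and -0.595 in the DSN list (SD 1.69 and 1.52), less than the spread over groups. The D excess was also present in the interior, where it was 0.809 percentage points over A and 0.703 over B in the plain list (D higher in 6 of 6 and 7 of 7 groups). As a ratio to its own interior, H3K4me3 cover of the ends differed between D and A by a mean of -0.0042 (SD 0.267), with D higher in 3 of 6 groups. Between D and B this ratio differed by a mean of 0.192 (SD 0.185), with D higher in 5 of 7 groups. In the DSN list the D minus B difference in ratio was 0.196 (SD 0.211), also with D higher in 5 of 7. On the ratio in the plain list, homoeologous group took 86.1% of the sum of squares and subgenome 3.63%. On H3K4me3 cover itself group took 46.7% and subgenome 39.1%. With 6 groups against 3 subgenomes, these raw shares do not show that group mattered more than subgenome. Without group 6 the shares were 11.3% and 65.4%, so the share of group rested largely on the high ends of 6A, 6B and 6D. Which raw share was larger also depended on the length of the end. With 10 Mb group took 61.7% and subgenome 22.5%, and with 30 Mb group took 36.8% and subgenome 46.5%. At the short-arm ends group took 45.1% and subgenome 32.1%.

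The 2 marks did not rank the ends alike. Across the 20 ends H3K27me3 and H3K4me3 cover had a Pearson correlation of -0.092 and a Spearman correlation of -0.051, a description over places that share their libraries. The 7B end combined the highest H3K27me3 cover with the second lowest H3K4me3 cover, and 6D combined the highest H3K4me3 cover with a middle value of H3K27me3. The 1B and 5A ends were low in both marks. In the left-out last 20 Mb of 4A, H3K27me3 covered 35.7%, above each of the 20 ends, and H3K4me3 covered 10.7%.

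**Figure D2:**
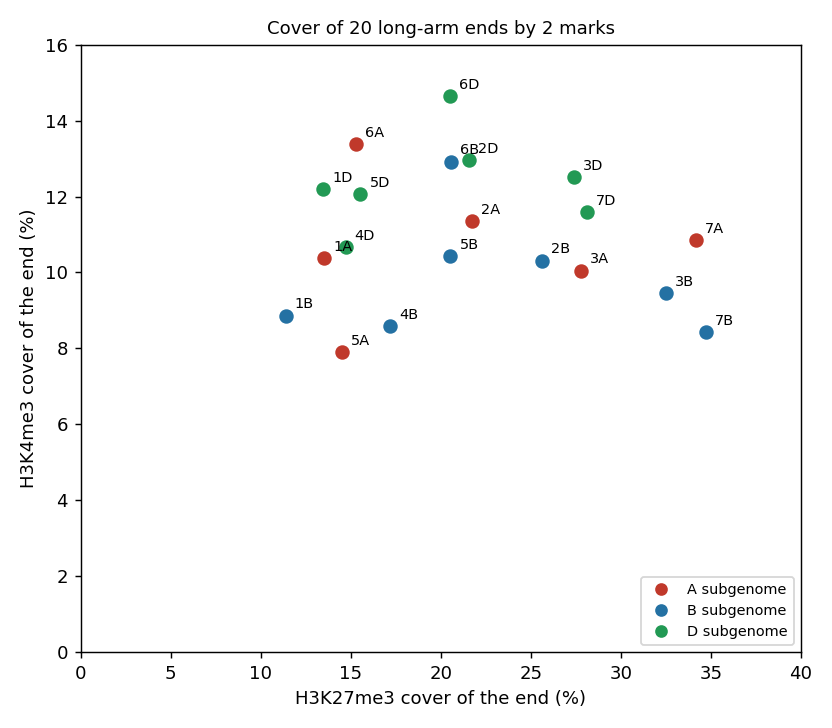
H3K27me3 cover (x axis, percent) against H3K4me3 cover (y axis, percent) of the last 20 Mb, 1 point per long-arm end, coloured by subgenome. The ends of groups 3 and 7 lie at the right, those of group 1 at the left, and D ends lie above their A and B homoeologues.

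Peaks of both marks were denser in the ends than in the interior, while width and score differed in opposite directions. H3K27me3 had 128 peaks per Mb in the ends against 47.7 in the interior, and H3K4me3 had 36.9 against 14.0. Widths are those of the authors' peak caller. H3K27me3 peaks were wider in the ends, with a median of 1310 bp against 1124 bp, and the end had the higher median on 20 of 20 chromosomes. H3K4me3 peaks were narrower in the ends, with a median of 2462 bp against 2829 bp, and the end had the higher median on 0 of 20 chromosomes. The DSN list showed the same order, 2182 bp against 2494 bp and 0 of 20. Peaks 5 kb or wider made up 2.44% of H3K27me3 peaks in the ends (1251 peaks), against 1.08% of that list as a whole. For H3K4me3 they made up 12.01% in the ends, against 15.1% of the whole list, and for DSN 7.19% against 8.43%. Short-arm ends differed from the interior in the same directions, so these traits were not particular to long-arm ends. There H3K27me3 had 143 peaks per Mb, a median width of 1344 bp and 2.86% of peaks 5 kb or wider. H3K4me3 had 36.5 peaks per Mb, 2422 bp and 12.5%, and DSN had 35.5, 2174 bp and 7.46%.

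The score is the authors' own value per peak, and many peaks stand at or just above a ceiling of 3100. In the ends 2.40% of H3K27me3 peaks (95% Wilson interval 2.28% to 2.54%) scored 3100 or more, against 1.24% of the whole list and 0.712% in the interior. For H3K4me3 the share was 17.3% (16.7% to 17.95%) in the ends, against 28.1% of the whole list and 30.9% in the interior. The DSN list had 11.9% (11.4% to 12.4%), against 18.5% of the whole list and 20.2% in the interior. H3K27me3 exceeded its interior share on 20 of 20 chromosomes and each H3K4me3 list on 0 of 20. At short-arm ends the shares were 3.41% for H3K27me3, 17.0% for H3K4me3 and 11.3% for DSN. The Wilson intervals given here, and those that follow, cover counting error only.

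Width also varied with the mark's own cover. Among the 20 ends, median H3K27me3 width ran from 1200 bp on 1B to 1437 bp on 7B, the ends of lowest and highest cover. Its Pearson correlation with cover was 0.92 (Spearman 0.96, 20 ends, description only). Cover is made up of peak widths, so a positive correlation is partly built in. The narrowest H3K4me3 peaks were also on 7B, with a median of 2024 bp, and the widest on 5D, with 2864 bp. Median H3K4me3 width and H3K27me3 cover had a Pearson correlation of -0.79 and a Spearman correlation of -0.78 over the same ends. D ends had wider H3K4me3 peaks than B ends in 7 of 7 groups, by a mean of 239 bp (SD 147 over groups), and than A ends in 5 of 6 groups, by 119.5 bp (SD 182).

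Along the 20 Mb there was no common rise towards the tip. The median H3K27me3 cover over the 20 ends was 19.9% in the outermost 5 Mb, then 22.1%, 19.2% and 19.6% in the next steps of 5 Mb. H3K4me3 gave 10.0%, 11.3%, 11.3% and 10.6%. The outermost 5 Mb exceeded the innermost 5 Mb in 10 of 20 ends for H3K27me3 and in 9 of 20 for H3K4me3. Just inside the 20 Mb limit, from 19 to 20 Mb, the median cover was 18.01% for H3K27me3 and 11.7% for H3K4me3. Just outside, from 20 to 21 Mb, it was 17.3% and 11.4%, so the limit cuts through a plateau. In the 20 Mb beyond it, on the 19 chromosomes long enough, the medians were 14.9% and 9.95%, and the end was the more covered zone on 17 of 19 for H3K27me3 and 14 of 19 for H3K4me3.

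Single ends departed from this flat course. On 4D the outermost 5 Mb had 20.2% H3K27me3 and 14.1% H3K4me3, against 7.43% and 6.26% in the innermost 5 Mb, so both marks were denser towards the tip. On 1B the order was reversed, with 6.13% and 5.97% at the tip against 12.5% and 9.49% inside. The 3 members of group 1 were all less covered at the tip, where 1A had 8.40% H3K27me3 against 13.1% inside and 1D had 9.10% against 13.7%. On 3B H3K4me3 covered 0.355% of the outermost 1 Mb, the lowest of all 1 Mb steps, where H3K27me3 covered 21.3%. The most covered 1 Mb step of H3K27me3 was on 7B, 5 to 6 Mb from the end, with 54.9%. For H3K4me3 it was on 6A, 4 to 5 Mb from the end, with 24.99% in the plain list and 21.8% in the DSN list.

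**Figure D3:**
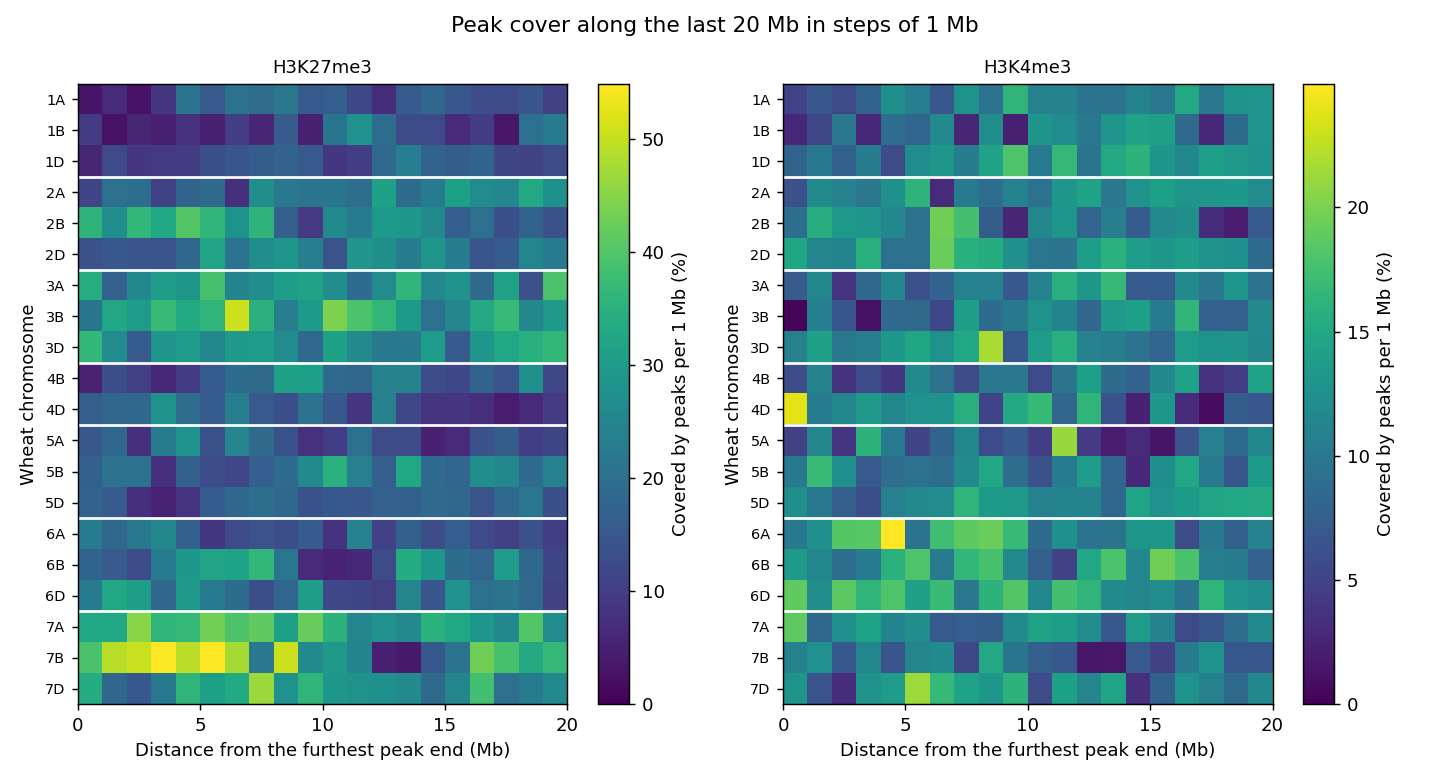
Cover by H3K27me3 (left) and H3K4me3 (right) in steps of 1 Mb, with distance from the furthest peak end on the x axis, 1 row per long-arm end and colour as percent covered; the scales of the panels differ and white lines part homoeologous groups. The rows of groups 3 and 7 are bright for H3K27me3 over most of their length, with 54.9% in a step of 7B, while bright H3K4me3 steps such as the 24.99% on 6A are scattered.

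Most H3K4me3 peaks in the ends shared bases with H3K27me3. Of 14774 H3K4me3 peaks, 11583 (78.4%, Wilson interval 77.7% to 79.1%) overlapped an H3K27me3 peak by at least 1 bp, against 57.1% of the whole list and 52.5% in the interior. In the DSN list it was 11116 of 14803 (75.1%, 74.4% to 75.8%), against 54.4% of the whole list. The share was higher in the end than in the interior on 20 of 20 chromosomes in both lists. Seedling tissue of many cell types was used, so overlap can join cells that carry 1 mark each, and peak lists do not tell this from both marks on the same chromatin. Short-arm ends had 79.8% and 77.0%. With at least 50% of the peak covered, the shares in the ends were 60.7% in the plain list, against 37.7% of the whole list, and 59.6% in the DSN list, against 37.4%.

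The overlap share was high in groups 7 and 3 and low in group 1. In group 7, H3K27me3 overlapped 86.7% of H3K4me3 peaks on 7A, 89.5% on 7B and 85.7% on 7D. Group 3 had 83.4% on 3A, 88.0% on 3B and 84.8% on 3D. At the other side, group 1 had 72.9% on 1A, 66.3% on 1B and 68.4% on 1D. The highest and lowest of the 20 ends were 7B (counting interval 87.0% to 91.6%) and 1B (62.4% to 69.9%). They were also the ends of highest and lowest H3K27me3 cover, and an overlap of 1 bp is met more easily where cover is higher. The remaining ends lay between 69.1% on 6A, inside the range of group 1, and 84.8% on 2B, inside that of group 3. The other groups also ran into each other, as with 80.3% on 5A against 78.0% on 2D.

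Measured against what the covered lengths of each zone alone give, the overlap was lower in the ends than in the interior, though the zones differ in length. Shared bases were 2.31 times those expected from the cover of each end for H3K4me3 and 2.35 times for DSN, against 4.25 and 4.46 in the interior. The fold was below its interior value on 20 of 20 chromosomes. These folds are not on the same scale, as the expectation spanned 20 Mb in an end but a whole interior. Uneven cover along a longer zone can raise the fold. Zones of the same 20 Mb span were nearer to the ends in fold. In the next 20 Mb inwards, on 19 chromosomes, it was 2.71 for H3K4me3 and 2.78 for DSN. At the short-arm ends it was 1.98 and 2.02, below the long-arm ends. With the expectation in windows of 1 Mb the ends gave 2.21 (H3K4me3) and 2.25 (DSN), and the interior was not computed this way. Among the ends the fold was lowest on 7A (1.77) and 3B (1.89), where H3K27me3 is dense. It was highest on 5A (3.52) and 1B (3.38), where H3K27me3 is sparse. Where H3K27me3 covers more, the largest possible fold is smaller, so fold and share order the ends differently. The same limit applies to ends against interior. By bases, 49.6% of H3K4me3 territory in the ends lay inside H3K27me3 peaks and 25.3% of H3K27me3 territory lay inside H3K4me3 peaks. On 7B these were 67.2% and 16.3%, and on 1D 38.7% and 34.9%.

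**Figure D4:**
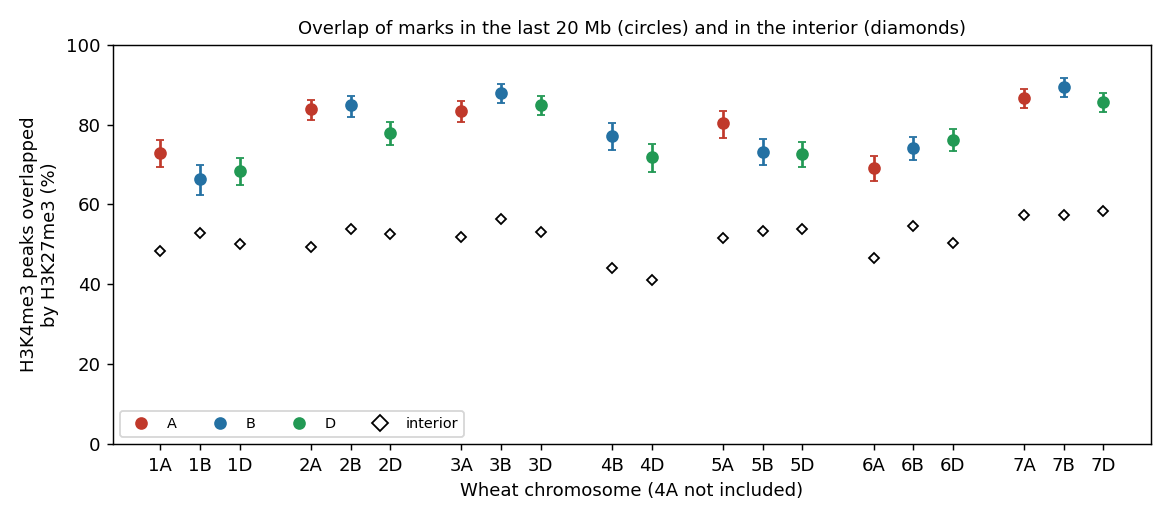
Share of H3K4me3 peaks that share at least 1 bp with an H3K27me3 peak (y axis, percent), per long-arm end (circles, coloured by subgenome, with 95% Wilson intervals) and in the interior of the same chromosome (diamonds). Circles run from 66.3% on 1B to 89.5% on 7B, and each lies above its diamond.

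H3K4me3 peaks lying wholly inside H3K27me3 territory were narrow and low in score. They numbered 1978 in the plain list (13.4% of the H3K4me3 peaks of the ends, against 6.50% of the whole list) and 2331 in the DSN list (15.7%, against 7.55%). Their median width was 1570 bp, against 2480 bp for all overlapped peaks and 2360 bp for peaks without overlap. Of those wholly inside, 1.26% scored 3100 or more, against 14.3% of all overlapped peaks and 28.2% of peaks without any H3K27me3 overlap. The median scores of these classes were 164, 584 and 447, so overlapped peaks exceeded those without overlap on this measure. Enclosed H3K4me3 peaks of the interior were alike, with a median width of 1481 bp and 2.41% at 3100 or more. Narrow peaks are more easily enclosed, so width and enclosure are not independent measures. By chromosome the enclosed share ran from 6.43% on 5D to 25.4% on 7B.

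The widest enclosed peaks were recorded in both H3K4me3 lists. On part 2 of chromosome 2B an H3K4me3 peak of 8.49 kb (339457148 to 339465639, counted from 1 within the part, as are all positions here; the genome build is not given in the sources used here) lay inside an H3K27me3 peak of 10.0 kb (339457148 to 339467194). The DSN list had an 8.85 kb peak at the same place (339457271 to 339466124). On 7D an H3K4me3 peak of 7.75 kb (178919935 to 178927689) lay inside an H3K27me3 peak of 8.37 kb, with a DSN peak of 7.48 kb. On 2D a peak of 7.64 kb (172333532 to 172341173) lay inside 9.25 kb of H3K27me3, with 85.1% of it also covered in the DSN list. On 7B the DSN list had an enclosed peak of 7.25 kb (285715013 to 285722263).

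H3K27me3 without H3K4me3 was the more common state in the ends, but less so than in the interior. Of 51202 H3K27me3 peaks in the ends, 36151 (70.6%) met no peak of either H3K4me3 list, against 80.0% in the interior. In the ends 14271 (27.9%) overlapped the plain list, against 20.4% of all H3K27me3 peaks. Those with H3K4me3 had a median width of 1800 bp, and those without 1194 bp. The interior had the same order, with 1468 bp and 1077 bp. Wider peaks meet a peak of another list more easily, so width and overlap are not independent measures. The widest H3K27me3 peaks were nevertheless free of H3K4me3. A 28.0 kb peak on 2A (313500964 to 313528962), 4.88 Mb from the end, and a 24.2 kb peak on 7D (177290098 to 177314322), 7.56 Mb from the end, had 0 bases in either H3K4me3 list. The third in width, 19.4 kb on 7B (294542550 to 294561902), was 16.5% covered by H3K4me3. A 15.5 kb peak on 7B (279241433 to 279256905) was the third widest without H3K4me3.

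Neighbouring H3K27me3 peaks formed chains. When peaks with gaps of at most 2 kb were joined, 481 chains of 20 kb or longer held 11.5% of the H3K27me3 bases of the ends, against 3.09% in the interior. That is 1.20 chains per Mb against 0.100. With gaps of at most 5 kb they held 52.2% against 17.2%, so the share depends on the gap allowed while its order does not. With gaps of at most 2 kb, the 7B end had 74 of the 481 chains, 3B 52, 7A 51, 7D 45 and 3D 40. By contrast, 1D had 4, and 1A and 5D had 5 each. The longest, 105 kb on 7B (288248541 to 288353237), joined 25 peaks, was 87.0% covered and held 14 H3K4me3 peaks. The next, 80.5 kb, also lay on 7B (293085538 to 293166069), and the third, 73.4 kb, on 7A (283990922 to 284064359). The chains were defined after the lists were seen.

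The windows of 100 kb with the densest H3K27me3 lay on 7B and 3B. A window on 7B (288297366 to 288397365) was 84.4% covered and overlapped the longest chain, a second on 7B (294497366 to 294597365) was 73.6% covered, and a window on 3B (375470041 to 375570040) was 72.9% covered. Of 4000 such windows, 164 were more than 50% covered, 50 of them on 7B, 21 on 7A and 21 on 3B, and 519 were less than 5% covered, 82 of them on 1B. H3K4me3 peaks were most crowded in other places. A window on 7B 0.500 Mb from the end (296197366 to 296297365) held 17 H3K4me3 peaks, and windows on 1D (29169111 to 29269110) and 6D (16612188 to 16712187) held 15 each. H3K27me3 covered 42.8%, 41.3% and 55.1% of these 3 windows, so crowded H3K4me3 and dense H3K27me3 met there.

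The widest H3K4me3 peaks lay on several chromosomes, and most of their length was also covered in the DSN list. A 22.2 kb peak on 2D (169711757 to 169733931) was 12.5% covered by H3K27me3 and 91.7% by DSN peaks. A 21.7 kb peak on 6A (160887422 to 160909156) had no H3K27me3, and the DSN list had a peak of 16.5 kb inside it (160888079 to 160904562). A 21.2 kb peak on 7D (171521688 to 171542870) was 69.3% covered by H3K27me3. The widest DSN peaks, 18.8 kb on 5B (244802274 to 244821050) and 18.1 kb on 3D (137456169 to 137474303), were 98.5% and 99.9% covered by the plain list. On 2D and 7D the DSN list had 4 peaks within each of these wide peaks.

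Peaks of the highest score, 3233.06 in each list, were not the widest ones. For H3K27me3 the widest of them was 4.76 kb on 7A (285964555 to 285969311), 0.682 Mb from the end, followed by 2.76 kb on 3A (290891582 to 290894338) and 2.13 kb on 7B (290289973 to 290292105). For H3K4me3 they were 4.14 kb on 4D (57264361 to 57268497), 3.06 kb on 5D (97671971 to 97675033) and 2.54 kb on 7D (164947632 to 164950173). The first of these shared 54.2% of its bases with H3K27me3 and the others none. In the DSN list they were 7.95 kb on 1A (103879013 to 103886959), 4.66 kb on 7D (175721195 to 175725856) and 4.44 kb on 6B (254946242 to 254950683).

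The 2 H3K4me3 lists gave closely similar cover of the ends. Of all bases covered by at least 1 of them, the fraction covered by both (the Jaccard index) was 0.736 in the ends, 0.749 in the interior and 0.722 at short-arm ends. Among the ends it ran from 0.672 on 7B to 0.751 on 4D. Cover of the 20 ends in the 2 lists had a Pearson correlation of 0.99. The DSN list covered less in 20 of 20 ends, at 0.863 times the plain list over all ends, and the ratio was lowest on 7B (0.810) and highest on 5A (0.897). It had more peaks in 12 of 20 ends. Of the plain peaks 85.0% met a DSN peak (84.8% in the whole list), and of the DSN peaks 92.8% met a plain peak (94.1% in the whole list), so both shares were near those of the whole lists.

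Peaks recorded in 1 H3K4me3 list were small. The 2212 plain peaks without a DSN partner had a median width of 1239 bp and 0 of them scored 3100 or more, against 2801 bp and 2561 peaks at that score among those with a partner. The 1061 DSN peaks without a plain partner had a median width of 978 bp, and 0 scored 3100 or more. H3K27me3 overlapped 68.3% (66.3% to 70.2%) of the first and 58.3% (55.3% to 61.3%) of the second, against 80.2% and 76.4% of peaks found in both lists. Narrow peaks meet H3K27me3 less easily, so these shares are not independent of width.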

How the data were processed

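Wheat reads were 151 bp paired reads, per the labels' protocols. The authors called peaks with MACS in each library, per the file headers, and deposited for each peak a start, an end and a score whose scale the headers do not define. Scores ran from 50.0 to 3233.06. They ranked and filtered peaks inside their own list. The submitters' processing notes name FastQC and BWA, and for the H3K4me3 lists also TopHat2, with no versions. The sources used here name no build, peak threshold or control library. A list's cover depends on depth, which the peak lists do not show, so levels of different marks are not levels of modification.

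Positions in the files were read as BED intervals, and wheat peaks of the same list did not overlap each other. Cover was the peak bases clipped to a zone over the zone's length. Expected overlap was the product of both covers within each end. Shares of peaks have 95% Wilson intervals. Sums of squares were split by group and subgenome over the 6 complete groups, without correction for the number of levels of each. Interval code was tested on simulated peaks. Python 3.11.15, NumPy 2.4.6, SciPy 1.17.1 and matplotlib 3.10.9 were used.

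Alternatives were peaks of score 100 or more, ends of 10 and 30 Mb, equal peak numbers (the 223666 of highest score), each list's own furthest peak, the rest of part 2 as reference, overlap of at least 50%, expectation in windows of 1 Mb and each homoeologous group left out. Named regions were, by rule, the 3 widest and 3 highest-scoring peaks per list, the widest enclosed or free of the other mark, extreme windows of 100 kb and the longest peak-free stretches. The ends, measures and rules were chosen with earlier results of these data known. No wheat genome or gene annotation was used here, so regions carry no gene names or sequences.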

Additional observations from a re-analysis of the deposited data

How the results depend on the processing

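In each list the ends exceeded the interior on 20 of 20 chromosomes with all peaks, with peaks of score 100 or more and with ends of 10 or 30 Mb. Of 199 recomputed values, 176 stayed within the tolerance set for them. It was 1 SD over ends or groups, or the Wilson interval for a share of peaks. For a share of the sum of squares it was 10 percentage points. Part of this count was fixed in advance. Leaving out 1 group cannot shift a mean difference by 1 SD over the groups. Equal peak numbers left the DSN list, the shortest, unchanged, and leaving out group 4 was counted under 2 settings. The count is therefore no measure of how stable the results are. The median H3K27me3 ratio of end to interior was 4.69 when scores under 100 were dropped and 6.76 when all lists were cut to the same number of peaks. With the rest of part 2 as reference the H3K4me3 ratio was 1.69 and the DSN ratio 1.70. Among peaks of score 100 or more the median widths were 1626 bp (H3K27me3), 2861 bp (H3K4me3) and 2604 bp (DSN), and the overlapped shares were 73.4% (H3K4me3) and 71.1% (DSN). Overlap of at least 50% of a peak gave 60.7% and 59.6%. In the last 10 Mb the D minus B difference was 3.26 percentage points for H3K4me3 and 2.89 for DSN, the D end was highest in 5 of 6 groups, and homoeologous group took 61.7% and 58.4% of the sum of squares and subgenome 22.5% and 23.3%. In the last 30 Mb group took 36.8% and 37.9%, and subgenome 46.5% and 45.0%. With each homoeologous group left out, H3K27me3 differences ranged from -1.13 to 1.12 (D minus A), from -3.89 to -2.44 (D minus B) and from 2.47 to 4.09 (B minus A). For H3K4me3 they ranged from 1.57 to 2.26, from 2.38 to 2.66 and from -1.21 to -0.216, and for DSN from 1.28 to 1.79, from 2.04 to 2.36 and from -1.16 to -0.263. The cause of these shifts was not tested. No paired analysis was possible because each wheat list is 1 library and no test was made.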

Other observations

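Some stretches of the ends held no peak of any list. The longest was 355 kb on 4B (220247100 to 220602568), 1.92 Mb from the end, followed by 285 kb on 1B (249679839 to 249964835) and 265 kb on 7B (283679437 to 283944666). The longest such stretch of an end ran from 57.1 kb on 7A to 355 kb on 4B, with a median of 141 kb. The 7B end, richest in H3K27me3, thus also held the third longest stretch. Gaps in the assembled sequence could not be told from sequence without peaks.

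Homoeologous ends were alike in their mean H3K27me3 cover but not in where along the 20 Mb it lay. Profiles in steps of 1 Mb had a median Pearson correlation of 0.0018 between homoeologous ends (19 pairs) and 0.0098 between other ends (171 pairs). For H3K4me3 the medians were 0.056 and 0.028. Distances were taken from the furthest peak of each chromosome and not from aligned genes.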
